A study of Mus musculus with 6 samples.

Results

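The genes described here are 32 genes of hepatic stellate cells and myofibroblasts, chosen by name from the 55254 genes of a whole-liver expression table, in which all 32 were found. They comprise 8 smooth muscle contractile genes (*Acta2*, *Actg2*, *Tagln*, *Cnn1*, *Myl9*, *Tpm2*, *Mylk* and *Cald1*), 8 genes of the broader cytoskeleton and of intermediate filaments (*Tpm1*, *Cnn2*, *Cnn3*, *Tagln2*, *Synpo*, *Vim*, *Des* and *Nes*) and 3 that mark the stellate lineage (*Lhx2*, *Hand2* and *Cygb*). The others are 5 secreted ligands (*Hgf*, *Gdf2*, *Bmp10*, *Bmp5* and *Reln*), 4 receptors or signal modulators (*Vipr1*, *Pth1r*, *Ngfr* and *Rgs5*) and 4 fibroblast surface or secreted proteins (*Thy1*, *Fap*, *Cdh11* and *Islr*). RNA-seq of liver was compared between 3 wild-type (WT) mice fed CDA-HFD for 7 weeks and 3 WT mice fed a normal diet (ND). CDA-HFD, a high-fat diet made with defined amino acids and without choline, is used in mice as a model of metabolic dysfunction-associated steatohepatitis (MASH) and the fibrosis that follows it. The labels give neither age nor sex, and by the study's methods CDA-HFD was given to male mice aged 6 to 12 weeks, with C57BL/6J as the wild-type strain. The source is labelled liver, whereas the extraction text of the labels speaks of sorted cells.

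Hepatic stellate cells lie between the sinusoidal endothelium and the hepatocytes, where in healthy liver they store retinoids. In injured liver they can turn into myofibroblasts, which lay down collagen and contract by means of α-smooth muscle actin, the product of *Acta2*. They are also a hepatic source of growth factors such as HGF and BMP9. Several of the contractile genes are shared with vascular smooth muscle, and in smooth muscle many are switched on by serum response factor (SRF) through a promoter element called the CArG box.

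Levels are given in TPM, transcript levels corrected for gene length and scaled to the same sum of 1000000 in each library, always for CDA-HFD replicates 1, 2 and 3 and then for ND replicates 1, 2 and 3. Each change is a log2 ratio of CDA-HFD to ND ± SE on the scale log2(TPM + 1), fitted with limma and adjusted by Benjamini-Hochberg over the 14730 genes with a mean of 1 TPM or more. Rose and fell are used for genes with an adjusted p under 0.05 whose log2 fold change was 1 or more, or -1 or less. By this rule 21.1% of all genes tested rose and 3.79% fell (3115 and 558 genes). With median-of-ratios scaling in place of TPM as deposited, the split was 2300 risen and 1033 fallen, and quantile normalization gave 1852 and 1135. The median change over all genes tested was 0.32 with TPM as deposited, -0.04 after median-of-ratios scaling and -0.10 after quantile normalization. Reads recovered from the TPM numbered 16830198 to 18919516 in CDA-HFD libraries and 14125649 to 15301208 in ND libraries. *Alb*, the albumin gene that defines hepatocytes, stood at 11963 to 13347 TPM in CDA-HFD and 15387 to 15615 TPM in ND.

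Of the 32 genes, 29 reached the expression minimum and were tested, of which 16 rose (55.2%, beside 21.1% of all genes tested) and 0 fell. The other 13 tested genes were not called, and *Cnn1*, *Fap* and *Cdh11* were too low to test. With TPM as deposited, 0 of the 29 were lower in limma even at an unadjusted p under 0.05, but by limma adjusted p without a fold limit 3 were lower after median-of-ratios scaling (*Cnn3*, *Vipr1* and *Ngfr*) and 7 after quantile normalization (*Myl9*, *Tpm2*, *Nes*, *Bmp10*, *Vipr1*, *Pth1r* and *Ngfr*). Voom on recovered reads also called 16 risen and 0 fallen. *Actg2* and *Tagln* reached the minimum with ND means below 1 TPM. By adjusted p alone, with no limit on the fold change, 19 of 29 were higher in CDA-HFD, beside 51.6% of all genes tested. In 19 of the 29 the CDA-HFD and ND libraries did not overlap, which held for 71.0% of all genes tested. With 3 libraries per diet, an exact permutation test cannot go below p = 0.10, so single genes were judged by the limma fit alone. The median log2 fold change of the 29 was 1.28, which lay 0.97 above the median of all genes tested, and this distance was 0.96 after median-of-ratios scaling and 0.81 after quantile normalization. In bulk tissue, more stellate cells and more RNA of a gene per stellate cell cannot be told apart.

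**Figure D1:**
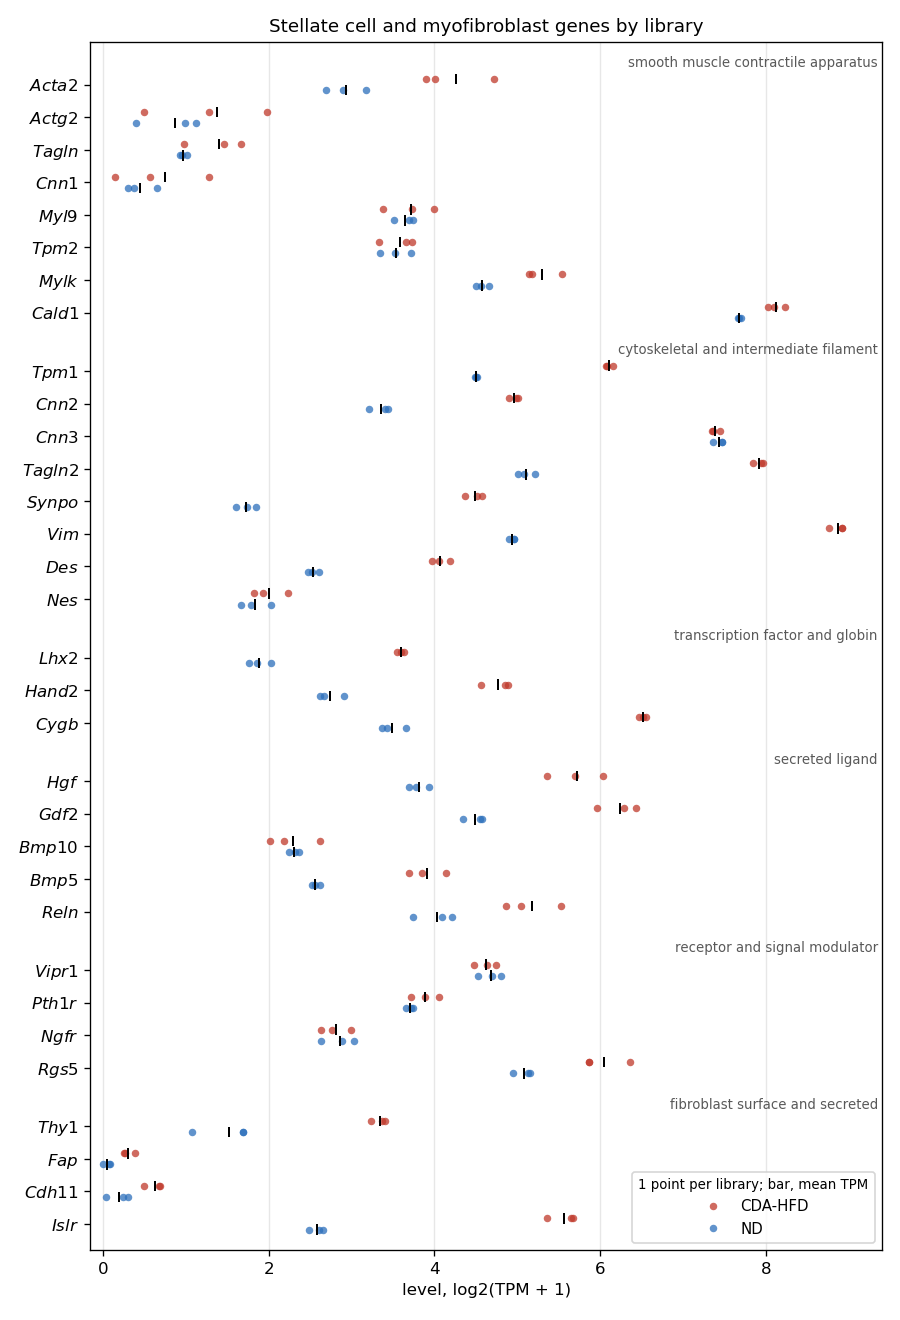
Level of each of the 32 genes in each library, as log2(TPM + 1) on the horizontal axis, with genes grouped by role down the page, CDA-HFD in red above ND in blue, and a bar at the mean TPM of each diet. The red and blue points lie apart for *Vim*, *Tagln2*, *Cygb* and *Islr* and are intermixed for *Myl9*, *Tpm2*, *Cnn3*, *Bmp10*, *Vipr1* and *Ngfr*.

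The counts per role are given beside the 21.1% of all genes tested that rose. The roles hold few genes, and whether any count differs from that share was not tested. Of the contractile genes 1 of 7 tested rose, with a median log2 fold change of 0.41, while 6 of 8 cytoskeletal and filament genes rose with a median of 1.61. This split depends on the roles assigned, as the tropomyosin genes *Tpm2* and *Tpm1* were placed in different ones. All 3 lineage genes rose, with a median of 2.03. Of the ligands 4 of 5 rose (median 1.33), of the receptors and modulators 0 of 4 rose (median 0.06), and both fibroblast genes that were tested rose (median 2.41).

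**Figure D2:**
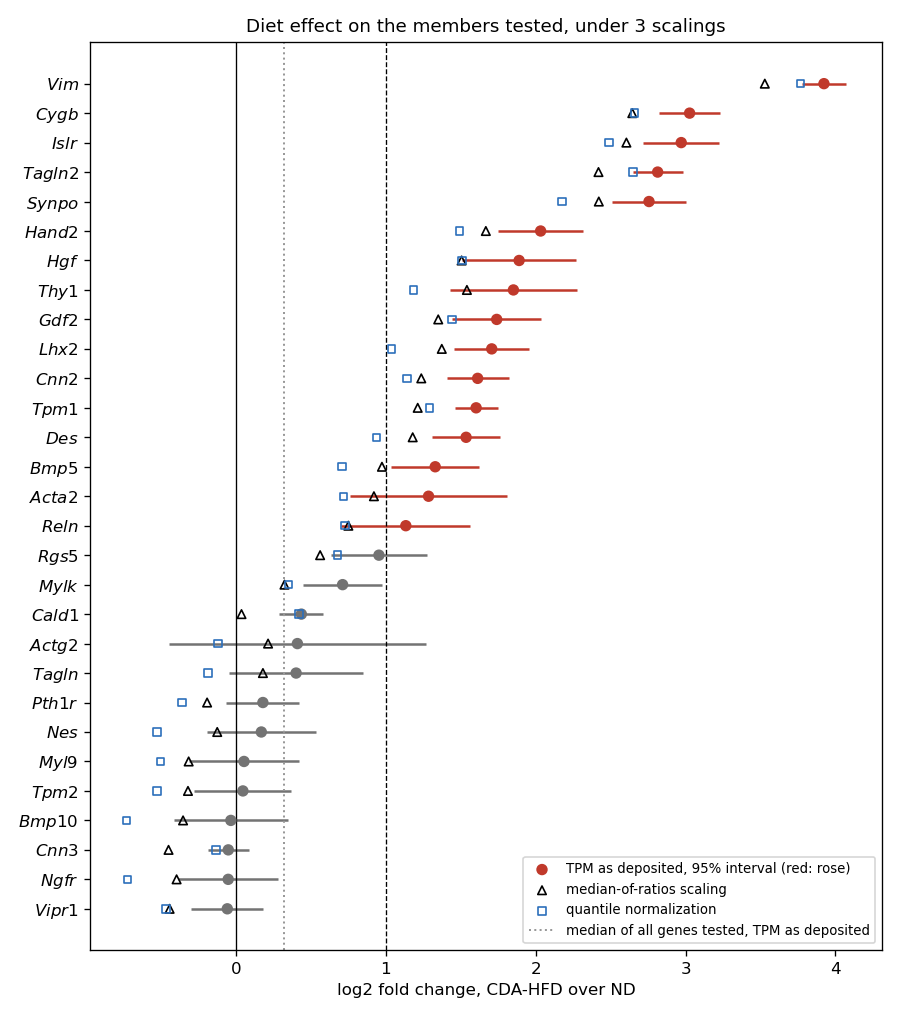
Log2 fold change of CDA-HFD over ND for the 29 genes tested, ordered by size, with 95% intervals; red points rose and grey points were not called. Triangles and squares give the value with median-of-ratios scaling and quantile normalization, the dashed line marks a log2 fold change of 1 and the dotted line the median of all genes tested, 0.32. Every triangle lies left of its circle, and *Acta2*, *Bmp5* and *Reln* fall below the dashed line with either other scaling.

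*Acta2*, which encodes the actin that defines myofibroblasts, was the contractile gene that rose. It stood at 25.3, 13.9 and 15.1 TPM in CDA-HFD libraries, against 8.04, 6.48 and 5.46 TPM in ND libraries. All CDA-HFD libraries lay above all ND libraries, with replicate 1 well above the other CDA-HFD libraries. The mean was 18.1 ± 6.29 TPM in CDA-HFD and 6.66 ± 1.30 TPM in ND (SD, n = 3 each), a log2 fold change of 1.28 ± 0.22 (limma adjusted p = 0.00132). The call depended on the scaling, since the change was 0.92 after median-of-ratios scaling and 0.72 after quantile normalization, both under the fold limit. *Acta2* (ENSMUSG00000035783.9) lies at chr19:34241090-34255590 on the minus strand of GRCm38.

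With TPM as deposited, *Myl9* and *Tpm2*, contractile partners of *Acta2*, did not pass the adjusted p. *Myl9*, a regulatory light chain of smooth muscle myosin, stood at 15.0, 9.38 and 12.3 TPM in CDA-HFD libraries, against 12.4, 12.0 and 10.4 TPM in ND libraries. The diets overlapped fully, and the log2 fold change was 0.05 ± 0.16 with a 95% interval from -0.31 to 0.42 (limma adjusted p = 0.784). *Tpm2*, the β-tropomyosin gene, was at 12.3, 9.06 and 11.7 TPM in CDA-HFD libraries, against 12.1, 9.19 and 10.5 TPM in ND libraries, again with overlapping diets (0.05, interval -0.28 to 0.37). With TPM as deposited, these intervals exclude a 2-fold rise of either gene on the log2(TPM + 1) scale, and after quantile normalization the values were -0.51 for *Myl9* and -0.53 for *Tpm2* (limma adjusted p = 0.0215 and 0.0105).

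The lowest contractile genes were uneven between the CDA-HFD libraries. *Tagln*, which encodes the smooth muscle protein SM22α, had 2.18, 0.973 and 1.75 TPM in CDA-HFD libraries, against 0.914, 0.940 and 1.02 TPM in ND libraries. CDA-HFD replicate 2 lay among the ND libraries and the other CDA-HFD libraries above them (log2 fold change 0.40 ± 0.19, limma adjusted p = 0.101). A predicted antisense gene covers 877 of the 1595 exon bases of *Tagln* and averaged 1.61 TPM in CDA-HFD and 1.14 TPM in ND, and the antisense gene *Pcsk7*, at 20.3 TPM in CDA-HFD and 24.1 TPM in ND, shares a further 94 bases. Reads of the shared bases cannot be told apart from those of *Tagln*. *Actg2*, a smooth muscle actin of the gut wall, had 2.94, 0.413 and 1.42 TPM in CDA-HFD libraries, against 1.19, 0.988 and 0.325 TPM in ND libraries (0.41 ± 0.37, limma adjusted p = 0.355). Its values rested on 30, 4 and 16 reads in CDA-HFD libraries and 10, 9 and 3 reads in ND libraries, and actin genes resemble each other closely, so its reads may have been split with those of other actins. *Cnn1*, smooth muscle calponin, had 1.43, 0.112 and 0.481 TPM in CDA-HFD libraries, against 0.578, 0.297 and 0.235 TPM in ND libraries, from 39 reads in CDA-HFD and 18 in ND. CDA-HFD replicate 2 was the lowest of all 6 libraries and replicate 1 the highest. The pooled ratio of *Cnn1* was 1.86 with a 95% counting interval from 1.04 to 3.46, which covers counting error only and not the spread between animals.

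*Mylk* and *Cald1* passed the adjusted p but not the fold limit. *Mylk*, the myosin light chain kinase, had 45.4, 34.4 and 35.1 TPM in CDA-HFD libraries, against 22.6, 24.2 and 21.7 TPM in ND libraries. The diets did not overlap, and the log2 fold change was 0.71 ± 0.11 (limma adjusted p = 0.000816). *Cald1*, caldesmon, which binds actin and restrains its sliding on myosin, had 299, 272 and 260 TPM in CDA-HFD libraries, against 208, 203 and 202 TPM in ND libraries, also with no overlap (0.44 ± 0.06, limma adjusted p = 0.000475). With median-of-ratios scaling the change of *Cald1* was 0.04 (limma adjusted p = 0.61).

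CArG boxes were looked for in the windows that RefSeq annotates around the transcription start, from 250 bases before it to 50 after it, on GRCm38.p6. The box is 10 bases long, a pair of C, a core of 6 bases that are each A or T, and a pair of G, which reads the same way on both strands. An exact box was present in 1.63% of 32851 windows, and 9.98% held an exact box or a near one with 1 other base in the core. Windows were matched for 25 of the 32 genes, of which *Myl9* and *Cnn2* held an exact box, and *Acta2* and *Pth1r* held near ones. The matches of the contractile genes and *Cnn2* are printed 5′ to 3′ with the box in capitals and 10 bases on each side, to show how close the *Acta2* elements come to the exact boxes of *Myl9* and *Cnn2*.
*Acta2*, 84 bases before the start, near, chr19:34255438-34255467, minus strand: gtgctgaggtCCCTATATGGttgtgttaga
*Acta2*, 34 bases before the start, near, chr19:34255388-34255417, minus strand: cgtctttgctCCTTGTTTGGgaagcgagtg
*Myl9*, 161 bases before the start, exact, chr2:156775293-156775322, plus strand: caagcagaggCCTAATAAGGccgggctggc
*Myl9*, 99 bases before the start, near, chr2:156775355-156775384, plus strand: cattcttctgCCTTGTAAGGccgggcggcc
*Cnn2*, 56 bases before the start, exact, chr10:79988534-79988563, plus strand: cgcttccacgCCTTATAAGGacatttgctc
Both *Acta2* stretches lie within the first exon of the GENCODE M21 model, which begins upstream of the RefSeq start, and the *Myl9* and *Cnn2* stretches lie outside exons of their genes. *Acta2* and *Cnn2* rose, whereas *Myl9*, with both an exact and a near box, had overlapping diets. A match of letters shows neither binding nor use of a site.

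Of the 8 genes of the broader cytoskeleton and its filaments, all but *Cnn3* and *Nes* rose. *Vim*, the vimentin of mesenchymal cells and leukocytes, had 433, 481 and 481 TPM in CDA-HFD libraries, against 30.1, 30.1 and 28.8 TPM in ND libraries. The CDA-HFD libraries lay far above the ND libraries and close to one another. Its log2 fold change of 3.92 ± 0.06 (limma adjusted p = 1.29e-08) was the largest of the 29. *Tagln2*, the relative of *Tagln* that is expressed in many cell types including leukocytes, had 229, 248 and 245 TPM in CDA-HFD libraries, against 32.9, 36.1 and 31.2 TPM in ND libraries. It rose by 2.81 ± 0.07 with no overlap (limma adjusted p = 5.56e-08). The ratio of *Tagln2* to *Tagln* was 105 to 255 in CDA-HFD libraries and 30.5 to 38.4 in ND libraries, both levels being in TPM.

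Since *Vim* and *Tagln2* are also expressed by macrophages, the macrophage markers are given beside them. All 8 of 8 markers rose, and their summed level was 3876 to 4257 TPM in CDA-HFD libraries and 435 to 490 TPM in ND libraries. *Ms4a7* and *Cd68* rose the most, by 4.72 and 3.94. The part of macrophages in the changes of *Vim* and *Tagln2* was not tested.

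Intermediate filaments more restricted to stellate cells changed less than *Vim*. *Des*, the desmin gene and a classical rodent stellate cell marker, had 15.6, 14.6 and 17.2 TPM in CDA-HFD libraries, against 4.55, 4.75 and 5.09 TPM in ND libraries. The diets did not overlap, and *Des* rose by 1.54 ± 0.10 (limma adjusted p = 4.43e-06), or by 0.94 with quantile normalization, which is under the fold limit. The ratio of *Vim* to *Des* was 27.7 to 32.9 in CDA-HFD libraries and 5.66 to 6.63 in ND libraries. *Nes*, nestin, had 3.69, 2.83 and 2.53 TPM in CDA-HFD libraries, against 3.07, 2.18 and 2.47 TPM in ND libraries. Its diets overlapped, with a log2 fold change of 0.17 and an interval from -0.20 to 0.53 (limma adjusted p = 0.371).

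Related tropomyosin and calponin genes differed in their change. *Tpm1*, the α-tropomyosin gene, had 70.3, 66.7 and 66.3 TPM in CDA-HFD libraries, against 21.5, 21.9 and 21.6 TPM in ND libraries, and rose by 1.60 ± 0.06 (limma adjusted p = 3.18e-07). *Cnn2*, the calponin of non-muscle cells, had 31.1, 28.9 and 30.7 TPM in CDA-HFD libraries, against 9.62, 8.29 and 9.82 TPM in ND libraries, and rose by 1.61 ± 0.09 (limma adjusted p = 2e-06). Neither gene had overlapping diets. *Cnn3*, acidic calponin, had 173, 163 and 162 TPM in CDA-HFD libraries, against 177, 176 and 163 TPM in ND libraries, so that the diets overlapped (-0.05, interval -0.19 to 0.08), and after median-of-ratios scaling its log2 fold change was -0.45 (limma adjusted p = 0.000212). It was the most abundant calponin in every library. *Synpo*, which encodes the actin-binding synaptopodin, had 22.8, 21.9 and 19.6 TPM in CDA-HFD libraries, against 2.59, 2.34 and 2.04 TPM in ND libraries, and rose by 2.76 ± 0.11 without overlap (limma adjusted p = 3.26e-07).

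All 3 lineage genes rose, with CDA-HFD libraries close together. *Cygb*, cytoglobin, a globin that in mouse liver marks stellate cells, had 90.3, 87.6 and 93.2 TPM in CDA-HFD libraries, against 9.80, 11.6 and 9.34 TPM in ND libraries. It rose by 3.03 ± 0.09 (limma adjusted p = 1.02e-07), with every CDA-HFD library far above every ND library. *Lhx2*, a LIM homeobox transcription factor whose loss activates stellate cells in mice, had 11.1, 10.7 and 11.4 TPM in CDA-HFD libraries, against 2.41, 2.63 and 3.08 TPM in ND libraries. It rose by 1.71 ± 0.11 without overlap (limma adjusted p = 4.1e-06), and by 1.04 with quantile normalization, just past the fold limit.

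*Hand2*, a basic helix-loop-helix transcription factor of mesenchymal lineages, had 28.6, 22.6 and 27.9 TPM in CDA-HFD libraries, against 5.17, 5.36 and 6.49 TPM in ND libraries. It rose by 2.03 ± 0.12 without overlap (limma adjusted p = 3.38e-06). Its exons share 461 bases with the antisense gene *Hand2os1*, which averaged 9.23 TPM in CDA-HFD and 0.904 TPM in ND. The strand setting of the read counting is not given, so reads of the shared bases cannot be assigned to one of them.

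Among the ligands, *Hgf* encodes hepatocyte growth factor, a hepatocyte mitogen made by non-parenchymal cells. It had 64.6, 50.8 and 39.9 TPM in CDA-HFD libraries, against 12.8, 14.4 and 11.9 TPM in ND libraries. The CDA-HFD libraries spread over a wide range but all lay above the ND libraries (1.89 ± 0.16, limma adjusted p = 2.41e-05). *Met*, its receptor, had 41.6, 47.3 and 35.2 TPM in CDA-HFD libraries, against 54.1, 59.1 and 51.7 TPM in ND libraries. *Met* was thus lower in every CDA-HFD library, with a log2 fold change of -0.41 ± 0.11 (limma adjusted p = 0.012) that did not reach the fold limit.

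The BMP ligands diverged. *Gdf2* encodes BMP9, a circulating ligand of the endothelial receptor ALK1, and had 85.5, 61.4 and 77.1 TPM in CDA-HFD libraries, against 19.2, 22.4 and 22.9 TPM in ND libraries. It rose by 1.74 ± 0.13 without overlap (limma adjusted p = 9.77e-06). *Bmp10*, which encodes the other high-affinity ALK1 ligand, had 5.13, 3.05 and 3.57 TPM in CDA-HFD libraries, against 4.15, 4.01 and 3.73 TPM in ND libraries. The ND libraries lay within the range of the CDA-HFD libraries, and the log2 fold change was -0.04 with an interval from -0.42 to 0.34 (limma adjusted p = 0.859). It was -0.35 after median-of-ratios scaling (limma adjusted p = 0.0682) and -0.73 after quantile normalization (limma adjusted p = 0.00302). The ratio of *Gdf2* to *Bmp10* was 16.7 to 21.6 in CDA-HFD libraries and 4.64 to 6.13 in ND libraries.

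*Bmp5*, a further BMP ligand, had 16.6, 13.4 and 11.9 TPM in CDA-HFD libraries, against 5.13, 4.90 and 4.73 TPM in ND libraries. The diets did not overlap, and it rose by 1.33 ± 0.13 (limma adjusted p = 4.14e-05). The change was 0.97 after median-of-ratios scaling and 0.71 after quantile normalization, under the fold limit. On the opposite strand a predicted gene covers 1878 of the 3822 exon bases of *Bmp5*, but it averaged at most 0.0323 TPM in either diet. *Reln*, reelin, a large secreted glycoprotein that guides neurons and in liver is made by stellate cells, had 45.2, 31.97 and 28.2 TPM in CDA-HFD libraries, against 16.0, 17.5 and 12.4 TPM in ND libraries. It rose by 1.13 ± 0.19 without overlap (limma adjusted p = 0.00094). That call was the least stable of the 16, with a log2 fold change of 0.75 by median-of-ratios scaling, 0.73 by quantile normalization, 0.94 without CDA-HFD replicate 1 and just under 1 without ND replicate 3.

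None of the 4 receptor and modulator genes rose or fell in limma or in voom, and at an unadjusted p under 0.05 limma placed 1 higher, *Rgs5*. *Vipr1*, a receptor of vasoactive intestinal peptide, had 25.7, 21.2 and 23.8 TPM in CDA-HFD libraries, against 22.0, 26.9 and 25.0 TPM in ND libraries (-0.06, interval -0.30 to 0.18). *Ngfr*, the p75 neurotrophin receptor, had 7.00, 5.20 and 5.81 TPM in CDA-HFD libraries, against 5.22, 7.18 and 6.41 TPM in ND libraries (-0.05, interval -0.39 to 0.28). *Pth1r*, the receptor of parathyroid hormone and its related peptide, had 15.6, 12.1 and 13.8 TPM in CDA-HFD libraries, against 11.6, 12.4 and 12.2 TPM in ND libraries (0.18, interval -0.06 to 0.42). The diets overlapped for all 3, and with TPM as deposited each interval excludes a 2-fold rise or fall on the log2(TPM + 1) scale. With median-of-ratios scaling the log2 fold change was -0.44 for *Vipr1*, -0.40 for *Ngfr* and -0.19 for *Pth1r* (limma adjusted p = 0.00659, 0.0391 and 0.121). After quantile normalization it was -0.47, -0.73 and -0.36 in the same order (limma adjusted p = 0.00456, 0.00221 and 0.0165).

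*Rgs5*, a GTPase activator that dampens G protein signalling and is abundant in pericytes, had 80.9, 57.2 and 57.3 TPM in CDA-HFD libraries, against 29.9, 33.9 and 34.5 TPM in ND libraries. The diets did not overlap (0.95 ± 0.14, limma adjusted p = 0.000477), and the change stopped just short of the fold limit. It passed the limit without CDA-HFD replicate 2 (1.04) or without CDA-HFD replicate 3 (1.03).

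Of the fibroblast genes, *Islr* encodes meflin, a surface protein of mesenchymal stromal cells. It had 49.2, 39.9 and 49.99 TPM in CDA-HFD libraries, against 5.12, 4.61 and 5.31 TPM in ND libraries, and rose by 2.97 ± 0.11 without overlap (limma adjusted p = 2.4e-07). *Thy1*, a surface glycoprotein of fibroblasts and, in mice, of T cells, had 9.63, 8.41 and 9.37 TPM in CDA-HFD libraries, against 2.24, 2.24 and 1.10 TPM in ND libraries. It rose by 1.85 ± 0.18 without overlap (limma adjusted p = 4.98e-05). T cell markers moved with it, as 7 of 8 rose and their summed level was 43.5 to 48.1 TPM in CDA-HFD libraries and 7.11 to 9.23 TPM in ND libraries, with *Themis* and *Trac* rising the most (3.36 and 1.95). Their part in the change of *Thy1* was not tested.

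*Fap* and *Cdh11* were near the detection limit. *Fap*, a fibroblast surface protease, had 4, 4 and 7 reads in CDA-HFD libraries, against 1, 1 and 0 reads in ND libraries, a pooled ratio of 6.44 with a counting interval from 1.499 to 58.1. The 0 reads of ND replicate 3 allow up to 3 reads, or 0.162 TPM. *Cdh11*, a cadherin of mesenchymal cells, had 26, 24 and 19 reads in CDA-HFD libraries, against 8, 1 and 7 reads in ND libraries, a pooled ratio of 3.71 (2.13 to 6.84). In TPM *Cdh11* was at 0.408 to 0.617 in CDA-HFD and 0.0265 to 0.230 in ND. Both genes were higher in every CDA-HFD library than in any ND library, but neither was tested.

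**Figure D3:**
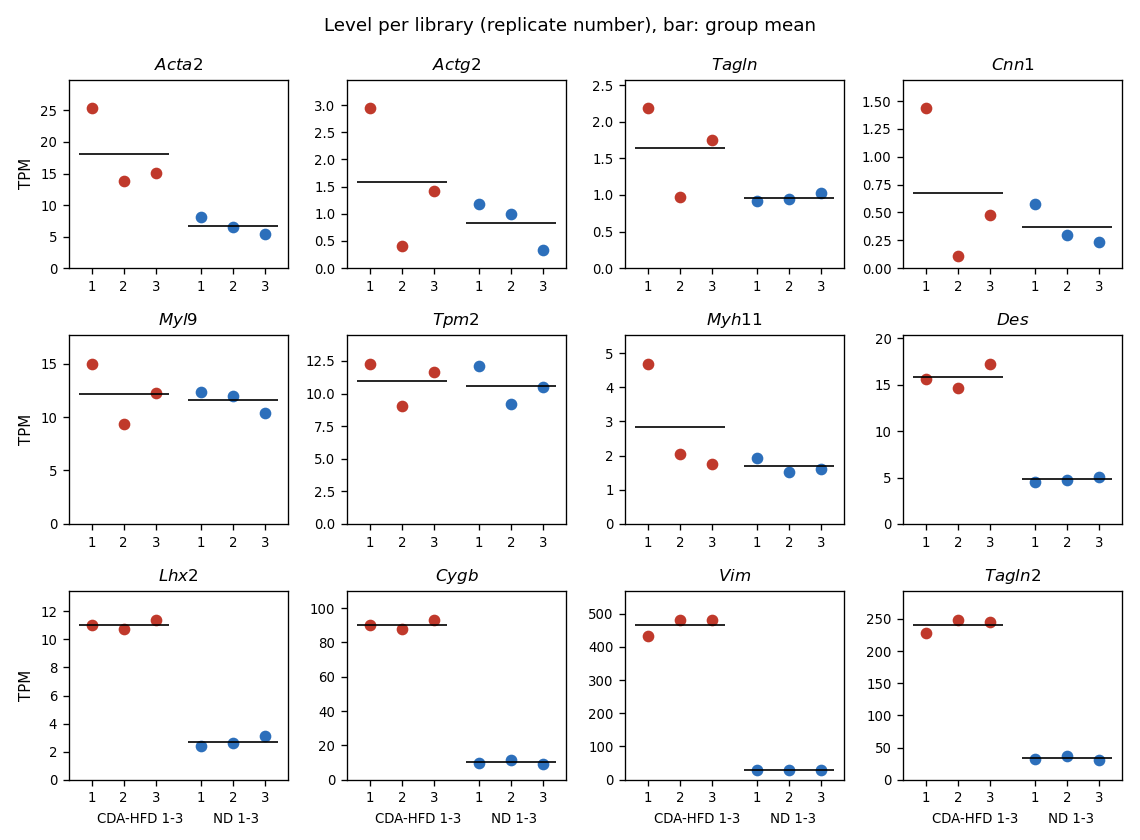
TPM of 12 genes in each library, with CDA-HFD replicates 1 to 3 in red left of ND replicates 1 to 3 in blue, bars at the mean of each diet and vertical axes starting at 0. CDA-HFD replicate 1 is the highest library for the 6 contractile genes shown and for *Myh11*, while *Des*, *Lhx2*, *Cygb*, *Vim* and *Tagln2* differ little between the CDA-HFD libraries.

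The CDA-HFD libraries differed among themselves in the contractile genes, and in some others. CDA-HFD replicate 1 was the highest CDA-HFD library for 8 of the 8 contractile genes and replicate 2 the lowest for 7 of them, the exception being *Cald1*. The ratio of replicate 1 to replicate 2 was 1.83 for *Acta2*, 2.24 for *Tagln*, 7.12 for *Actg2*, 12.8 for *Cnn1* and 1.60 for *Myl9*, beside a median of 1.03 over all genes tested. The largest ratios rest on few reads, 26 against 11 for *Tagln*, 30 against 4 for *Actg2* and 27 against 2 for *Cnn1*. *Cnn1* was too low to be among the genes tested. A ratio of at least 1.5 was found for 4.4% of all genes tested and for 5 of the 29, namely *Acta2*, *Actg2*, *Tagln*, *Myl9* and *Bmp10*. With replicate 1 the highest and replicate 2 the lowest, the same order was seen in 15 of the 29 genes, against 16.8% of all genes tested. Those 15 included all 4 receptor and modulator genes, while the list of other contractile and SRF genes showed the order in 3 of 23 tested. The order was read from the contractile genes themselves, so its count in the 29 is not a separate test. All genes come from the same libraries and are not replicates of one another. *Myh11*, the smooth muscle myosin heavy chain, which was not among the 32 genes, had 4.68, 2.05 and 1.76 TPM in CDA-HFD libraries, against 1.94, 1.52 and 1.61 TPM in ND libraries, so replicate 1 stood apart there too. The order was also seen in 5 of 9 endothelial markers and in 1 of the 7 tested markers of vascular smooth muscle and pericytes. *Cygb*, *Lhx2* and *Tpm1* showed ratios of 1.03, 1.03 and 1.05, near the median of all genes.

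Other genes of the contractile apparatus and its control by SRF were counted from a list that leaves out the 32 genes. Of 23 tested, 10 rose and 0 fell, with a median log2 fold change of 0.95, but 5 rose after median-of-ratios scaling and 6 after quantile normalization. *Flna* and *Csrp1*, an actin cross-linker and a LIM protein of actin filaments, rose the most, by 2.66 ± 0.09 and 2.01 ± 0.07. The MRTF coactivator gene *Mrtfa* had 19.6, 18.8 and 16.7 TPM in CDA-HFD libraries, against 5.004, 5.68 and 4.95 TPM in ND libraries, and rose by 1.64 ± 0.10 (limma adjusted p = 3.52e-06). *Srf* itself had a change of 0.37 ± 0.10. *Myocd*, myocardin, the SRF coactivator of differentiated smooth muscle, stayed at or below 0.078 TPM in every library. *Mrtfa*, *Srf* and *Myocd* were named after their values were seen.

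Genes listed as matrix and receptor genes of activated stellate cells rose in larger number than the contractile genes. Of 20 tested, 19 rose and 0 fell, with a median of 3.38. *Col1a1*, the α1 chain of type I collagen, had 186, 176 and 165 TPM in CDA-HFD libraries, against 5.14, 4.37 and 3.42 TPM in ND libraries (5.07 ± 0.12), and *Timp1*, an inhibitor of matrix metalloproteinases, rose by 4.97 ± 0.19. In the list drawn up for quiescent stellate cells 12 of 18 tested genes rose and 2 fell, with a median of 1.40. *Adamtsl2* and *Ednrb* rose the most, by 4.77 ± 0.08 and 2.69 ± 0.11. *Angptl6* and *Colec10* fell, with log2 fold changes of -1.87 ± 0.24 and -1.39 ± 0.21. *Colec10*, a collectin of quiescent stellate cells, had 15.6, 7.96 and 9.28 TPM in CDA-HFD libraries, against 27.2, 29.3 and 31.2 TPM in ND libraries. The list of quiescent genes thus held calls in both directions, and whether its genes are particular to quiescent cells was not tested.

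**Figure D4:**
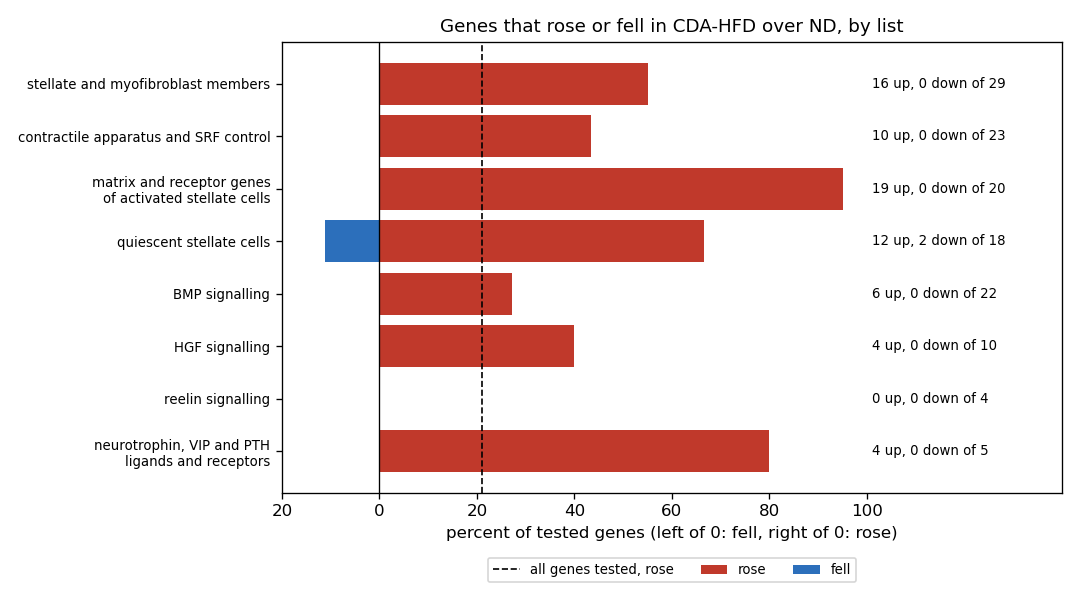
Percent of tested genes that rose (red, right of 0) or fell (blue, left of 0) in CDA-HFD over ND, for the 32 genes described here and for the lists of other genes, with the counts at the right; the dashed line is the percent of all genes tested that rose, 21.1. The list of matrix and receptor genes has the largest share with 19 of 20, and reelin signalling has 0 of 4.

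Genes around the ligands were counted in the same way. In BMP signalling 6 of 22 tested genes rose and 0 fell, with a median of 0.36, near the 0.32 of all genes. *Id1*, a direct BMP target, had 58.2, 45.0 and 55.7 TPM in CDA-HFD libraries, against 9.78, 3.62 and 3.83 TPM in ND libraries, and rose by 3.11 ± 0.30, and the decoy receptor gene *Bambi* rose by 1.89 ± 0.11. *Acvrl1*, which encodes ALK1, the receptor of BMP9 and BMP10, had 14.7, 12.4 and 15.1 TPM in CDA-HFD libraries, against 3.20, 3.04 and 3.78 TPM in ND libraries, and rose by 1.79 ± 0.12. The co-receptor gene *Eng* and the type II receptor gene *Bmpr2* had changes of 0.82 ± 0.08 and 0.43 ± 0.15, under the fold limit.

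In HGF signalling 4 of 10 tested genes rose, and the protease genes *Plat*, tissue plasminogen activator, and *St14*, matriptase, rose by 4.52 ± 0.15 and 3.84 ± 0.12. In reelin signalling 0 of 4 rose or fell by limma or voom, and 3 were higher at a limma adjusted p under 0.05 without reaching the fold limit. *Crk*, an adaptor and the most abundant gene of the list, had a change of 0.41 (limma adjusted p = 0.0026). *Vldlr*, a reelin receptor, had 2.22, 2.58 and 1.90 TPM in CDA-HFD libraries, against 1.09, 1.89 and 0.945 TPM in ND libraries (0.50 ± 0.18, limma adjusted p = 0.0419). *Lrp8*, the other reelin receptor, had 0.451 to 0.863 TPM in CDA-HFD and 0.0201 to 0.0372 TPM in ND and was too low to test.

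Ligands of the receptors among the 32 genes were measured too. Of 5 tested genes in neurotrophin, VIP and parathyroid hormone signalling 4 rose, among them *Ntf3*, neurotrophin-3, by 2.47 ± 0.19. *Ntf3* had 7.03, 11.5 and 10.8 TPM in CDA-HFD libraries, against 0.756, 0.875 and 1.12 TPM in ND libraries, with no overlap between the diets. *Vip* was listed at 0 in all 6 libraries, and *Pthlh*, the parathyroid hormone-related peptide gene, was at 0.0871 TPM or less.

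Markers of other cells that share these genes were examined beside them. Of the markers of vascular smooth muscle and pericytes 4 of 7 tested rose, led by *Mustn1* (2.90) and *Kcnj8* (1.21), and their sum was 126 to 139 TPM in CDA-HFD libraries and 33.3 to 35.7 TPM in ND libraries. *Mustn1* alone made up 59.6% to 64.6% of the CDA-HFD sums, and without it they were 49.1 to 51.4 TPM in CDA-HFD libraries and 24.3 to 25.0 TPM in ND libraries. In the same list *Pln*, *Rergl* and *Higd1b*, which were named after their values were seen, stayed below 0.4 TPM in every library. Of the portal fibroblast markers 7 of 7 tested rose, led by *Eln* (4.21) and *Dpt* (4.14), with sums of 371 to 429 TPM in CDA-HFD libraries and 27.4 to 32.2 TPM in ND libraries. Hepatocyte markers were at 29180 to 31581 TPM in sum in CDA-HFD libraries and 37107 to 37452 TPM in ND libraries. By limma 0 of 9 rose or fell, while 6 were lower at an adjusted p under 0.05 without reaching the fold limit. Endothelial markers summed to 195 to 237 TPM in CDA-HFD and 209 to 215 TPM in ND, where *Lyve1* rose by 2.32 and *Kdr* had a log2 fold change of -1.05. Their parts in the changes of the 32 genes were not tested.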

How the data were processed

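Whole-liver RNA-seq of 6 libraries, 3 per diet, was taken as deposited: the authors' table gives TPM for 55254 genes, with columns assigned to diets and replicates from the labels. The labels call the libraries biological replicates and give no batch. Per the submitters' processing notes, Trimmomatic 0.39.0, HISAT2 2.2.1, featureCounts 2.0.1 and GRCm38 (mm10) were used; the study's methods add removal of PCR duplicates. The annotation release and strand setting are not given in the sources used here.

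TPM multiplied by GENCODE M21 exon length gave whole multiples of a step (within 0.01 reads) for 98.4% to 98.5% of detected values, and so the reads. Replicates differed by more than sampling of reads (mean chi-square per gene 11.3 to 14.3). Coordinates are counted from 1 on GRCm38; promoter windows are from RefSeq (GRCm38.p6).

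Diets were compared with limma 3.58.1 (R 4.3.3) on log2(TPM + 1), with diet as the only term and a trended eBayes, two-sided, over genes averaging 1 TPM or more. Counting intervals for ratios are exact (conditional binomial, 95%), and the limit set by 0 reads was 3 reads. Both cover counting error only. On reads simulated for CDA-HFD against ND (14296 genes, 200 changed), the fit recovered 96% of genes changed by a log2 of 1.5 and 100% at 2, 3 and 5, with 6 false calls. The simulation gave all genes the same dispersion and changed only well-read genes, with as many rises as falls. In the data far more genes changed and most of them rose, so these rates do not carry over to the calls made here.

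Named were all 32 genes, the 2 largest rises and falls among called genes of each list (or, with none called, its most abundant gene), and the receptors and ligands paired with them, of which some are not reported here; *Myh11*, *Mrtfa*, *Srf* and *Myocd* and the markers at or near 0 were added after their values were seen. The genes and lists were chosen with earlier results of these data known. Lists covered 7 pathways or states and 11 cell types. Alternatives were 2 pseudocounts (0.5 and 0.1), no filter, a minimum of 5 TPM, 2 scalings, TPM without the 50 most abundant genes, other eBayes settings and fold limits, a replicate block, leaving out each library, and voom on recovered reads.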

Additional observations from a re-analysis of the deposited data

How the results depend on the processing

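Over 19 alternatives, 12 of the 16 rises were called in every one, and *Acta2*, *Bmp5*, *Des* and *Reln* lost the call in at least 1. The number of the 29 genes that rose was 13 after median-of-ratios scaling, 12 after quantile normalization, 15 to 17 without each library in turn, 18 with a fold limit of 1.5, 19 with no fold limit and 16 with voom on recovered reads, and 0 fell in each.

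With quantile normalization the log2 fold change turned to -0.12 for *Actg2*, -0.19 for *Tagln*, -0.51 for *Myl9*, -0.53 for *Tpm2*, -0.53 for *Nes* and -0.36 for *Pth1r*. With median-of-ratios scaling it turned to -0.32 for *Myl9*, -0.32 for *Tpm2*, -0.13 for *Nes* and -0.19 for *Pth1r*, and without the 50 most abundant genes to -0.024 for *Myl9* and -0.031 for *Tpm2*. Leaving out 1 library at a time, it ranged from -0.10 to 0.22 for *Myl9*, -0.045 to 0.17 for *Tpm2*, -0.21 to 0.094 for *Bmp10*, -0.16 to 0.037 for *Ngfr* and -0.13 to 0.011 for *Vipr1*. None of these genes was called. The cause of the differences between scalings was not tested.

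Over all genes tested, 1033 fell after median-of-ratios scaling and 1135 after quantile normalization, where 1852 rose. With a minimum mean of 5 TPM, which leaves fewer genes to test, 1914 rose. With a fold limit of 1.5, 4942 rose and 1110 fell, and with no fold limit 7604 rose and 2117 fell. Among other contractile and SRF genes, 5 rose after median-of-ratios scaling and 6 after quantile normalization. In BMP signalling 2 fell with quantile normalization, and in HGF signalling 1 fell with median-of-ratios scaling.

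The labels number the replicates of both diets from 1 to 3 but do not say that a number marks a shared cage or day. Deviations of same-numbered libraries from their diet means correlated by 0.09, 0.04 and 0.09 over genes, and other pairs by -0.09 to 0.01. Each library thus correlated best with its own number, but the values were small. Deviations were centred within each diet, so the correlations are not independent of one another. Whether a number marks a shared cage or day was not tested. With the replicate block 16 of the 29 genes rose, and 3128 of all genes rose and 559 fell. Depth limited *Fap*, *Cdh11*, *Cnn1* and *Actg2* the most.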

Other observations

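Some cell types that could add to the RNA of a whole liver are given here as values. Cholangiocyte markers rose in 5 of 6 tested genes, with *Spp1* and *Epcam* rising the most (3.81 and 3.77), and their sum was 1137 to 1245 TPM in CDA-HFD libraries and 91.7 to 109 TPM in ND libraries. *Spp1*, which macrophages of steatotic liver also express, made up 88.4% to 89.2% of the CDA-HFD sums, and without it they were 127 to 135 TPM in CDA-HFD libraries and 24.0 to 32.1 TPM in ND libraries. Of the mesothelial markers 3 of 5 tested rose, led by *Krt19* (2.42) and *Wt1* (2.203), with sums of 42.5 to 55.7 TPM in CDA-HFD libraries and 8.84 to 12.6 TPM in ND libraries. *Krt19* made up 52.9% to 58.0% of the CDA-HFD sums, and whether its RNA came from mesothelium or from cholangiocytes was not tested. Without *Krt19* the sums were 18.2 to 26.2 TPM in CDA-HFD libraries and 4.94 to 8.64 TPM in ND libraries. *Msln* and *Upk3b* were not called, and their diets overlapped. The mesothelial sum was highest in CDA-HFD replicate 2, the library in which most contractile genes were lowest.

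Most markers of nerve, striated muscle and fat stayed below 1 TPM in every library. Of the Schwann cell markers *Mbp* was the only one tested and rose by 2.50, while *Sox10* stayed at or below 0.0507 TPM. Of 9 striated muscle markers 8 stayed below 1 TPM in every library and *Myh6* was listed at 0 in all, and *Tnnt2* rose by 1.02. No adipocyte marker was tested, *Lep* was listed at 0 in all libraries, and *Cfd*, the most abundant of them, was at 0.306 TPM or less in CDA-HFD and 0.964 to 1.41 TPM in ND.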
